A study of Mus musculus with 4 samples.

Results

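The genes described here serve antigen presentation by MHC class II molecules, and their transcripts were read in epithelium captured by laser from sections of mouse ileum and proximal colon. They are H2-Ab1, H2-Aa, H2-Eb1, Cd74, Ciita, H2-DMa, H2-DMb1 and Ctss. They were found as the probe sets, groups of array probes for a transcript, whose platform gene symbol is one of these 8 names. That gave 17 of 45037 non-control probe sets. Of these, 15 carried 1 gene symbol and stood for 7 of the 18193 genes of the array. The other 2 were shared by H2-DMb1 and H2-DMb2, so no value belongs to H2-DMb1 alone.

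The arrays came from 4 groups: ileum of germ-free mice, ileum of wild type mice, proximal colon of germ-free mice and proximal colon of wild type mice. All mice were C57/Bl6; germ-free mice live without microbes, and the labels do not give the housing of the wild type animals. Age and sex are not stated in the labels. RNA of 4 mice, from about 4000 cells of each, was pooled for the single array of a group, so no difference below has a replicate check or a test, and the small number of arrays sets the limit of precision. Intensities are given after quantile normalization, with a floor of 62.4, the pooled median of all probe sets, and changes are log2 differences, germ-free minus wild type or ileum minus colon. A gene was taken as measured where it exceeded the floor on 1 or both arrays compared, and a fold against a value at the floor is written "at least".

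Class II molecules are pairs of an alpha and a beta chain that show peptides from taken-up proteins to CD4 T cells. The chains assemble in the endoplasmic reticulum with the invariant chain, Cd74, which blocks the peptide groove and steers the complex to endosomes, where cathepsin S (Ctss) trims it and the DM pair (H2-DMa with H2-DMb1 or H2-DMb2) exchanges the remnant for a peptide. Transcription needs the co-activator Ciita, induced by interferon gamma and docked on factors bound to X and Y boxes before each class II gene. Dendritic cells, macrophages and B cells carry class II constantly, and intestinal epithelial cells are known to carry it too, more in the small intestine than in the colon.

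The promoters are shown as background to the X and Y boxes, and a link of the boxes to the values on the arrays was not tested. RefSeq windows of build GRCm38.p6 matched 5 of the 8 genes by symbol, and H2-Ab1, Cd74 and Ciita were without a match. Each sequence below is the 250 bases before an annotated start, 5′ to 3′ on the gene's strand. Capitals mark a Y box core GATTGG or an X box core AACTGAT, searched on both strands, and no matches overlap in these 4 windows. The letters of the X box core were chosen after the windows had been read.
H2-Aa, chr17:34287824-34288073, minus strand: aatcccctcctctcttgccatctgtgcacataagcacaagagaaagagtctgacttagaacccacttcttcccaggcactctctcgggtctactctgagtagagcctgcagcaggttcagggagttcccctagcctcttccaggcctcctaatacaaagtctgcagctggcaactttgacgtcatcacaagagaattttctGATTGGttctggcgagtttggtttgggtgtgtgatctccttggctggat
H2-Eb1, chr17:34305617-34305866, plus strand: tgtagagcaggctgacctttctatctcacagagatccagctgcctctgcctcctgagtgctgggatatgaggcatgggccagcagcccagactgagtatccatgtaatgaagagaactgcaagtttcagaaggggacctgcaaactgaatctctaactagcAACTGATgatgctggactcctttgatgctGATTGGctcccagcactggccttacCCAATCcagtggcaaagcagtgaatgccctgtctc
H2-DMb1, chr17:34152941-34153190, plus strand: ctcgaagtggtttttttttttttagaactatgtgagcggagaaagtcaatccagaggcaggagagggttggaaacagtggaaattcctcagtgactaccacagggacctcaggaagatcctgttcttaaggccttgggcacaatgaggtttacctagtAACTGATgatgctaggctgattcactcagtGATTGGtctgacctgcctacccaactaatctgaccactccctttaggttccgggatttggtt
Ctss, chr3:95526536-95526785, plus strand: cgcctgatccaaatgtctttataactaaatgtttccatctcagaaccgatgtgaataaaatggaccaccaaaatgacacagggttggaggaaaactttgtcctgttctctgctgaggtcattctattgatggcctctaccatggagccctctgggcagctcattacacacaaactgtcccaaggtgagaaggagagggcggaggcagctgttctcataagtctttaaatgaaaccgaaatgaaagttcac
The H2-Eb1 window held the X box core from 89 to 83 bases before the start and the Y box core from 60 to 55 bases before it, with 22 bases between them. A further Y box core, on the other strand, lay from 35 to 30 bases before the start. H2-DMb1 had both cores, 23 bases apart, with the X box core from 92 to 86 bases before the start. The H2-Aa window held the Y box core from 49 to 44 bases before its start, without these X box letters, and the Ctss window held neither. Of 2 windows for H2-DMa, 1 held a Y box core. Among class II genes outside this list, the H2-Eb2 window held both cores, and those of H2-Oa, H2-Ob and H2-DMb2 the Y box core. The brightest probe set naming each of these genes alone was below the floor on all arrays. Among all 32851 windows, 14.6% held the Y box core, 2.09% the X box core and 0.307% both. A match is a description of the letters and not a measured binding site.

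The captured material had the profile of epithelium. The epithelial keratin Krt8 was at 15772, 15544, 16920 and 16058 on the arrays of germ-free ileum, wild type ileum, colon of germ-free mice and wild type colon, and all 12 epithelial markers were above the floor on every array. Transcripts of blood, vessel and connective tissue cells were also read on the arrays, and their values are given with the class II results below. The germ-free arrays also differed in signs of RNA quality, in both regions and in the values as deposited. The 5′ over 3′ signal of the Gapdh control had changes of -0.48 in colon and -1.10 in ileum, and that of Actb of -0.12 and -1.20. The labels mention hematoxylin staining for the germ-free samples alone. These features and the germ-free state cannot be told apart in any comparison of germ-free with wild type.

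The chains of the classical class II molecules were lower on both germ-free arrays. H2-Ab1, the beta chain of the A molecule, was at 907 on the germ-free ileum array and 1774 on the wild type ileum array. In colon it was at 329 on the germ-free array and 776 on the wild type array. The germ-free colon array was thus the lowest of the 4 and the wild type ileum array the highest, with a change of -1.24 in colon and -0.97 in ileum. H2-Aa, the alpha chain of the same molecule, was at 942 on the germ-free and 1683 on the wild type ileum array, and at 359 on the germ-free and 809 on the wild type colon array. Its changes were -1.17 in colon and -0.84 in ileum, with the 4 arrays in the same order as for H2-Ab1. Both chains of the A molecule were therefore about equally lower in each region.

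**Figure D1:**
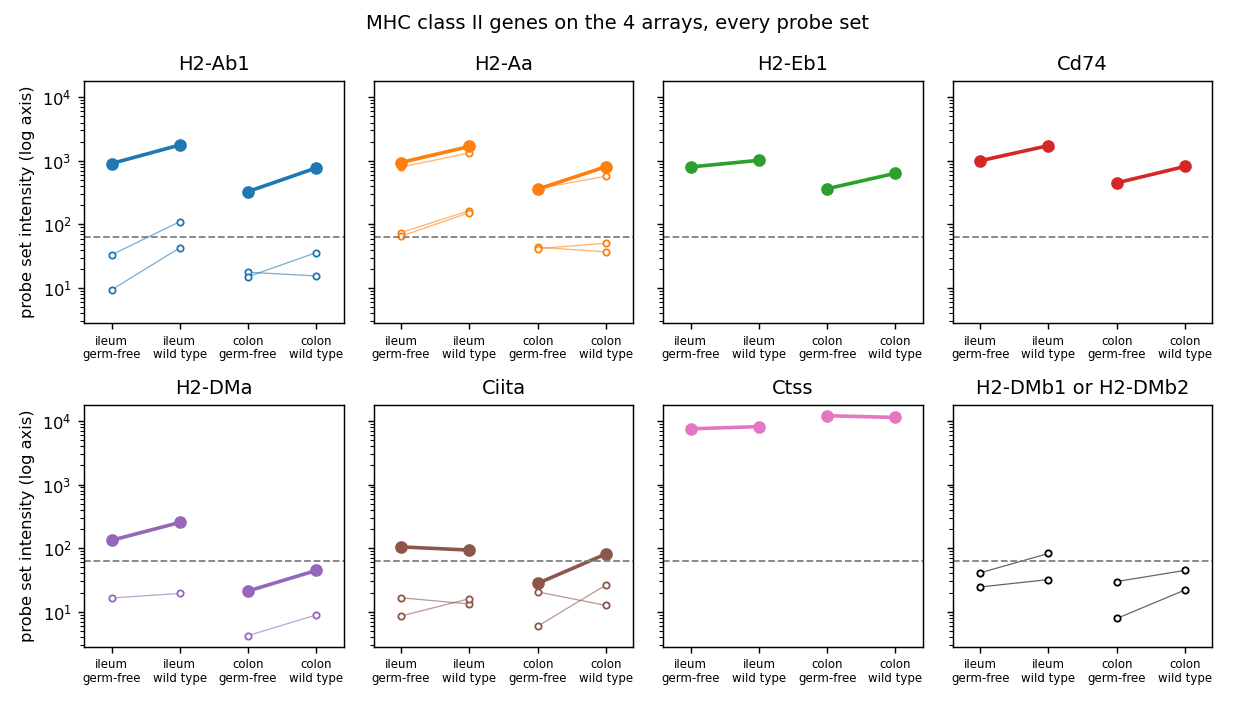
Probe set intensity (log axis) of each gene on the 4 arrays, germ-free left of wild type within each region. Thick lines with filled points show the probe set that stands for the gene, thin lines with open points the others, and the dashed line the floor of 62.4; H2-Ab1, H2-Aa, H2-Eb1 and Cd74 are lower on the germ-free array in both regions, while Ctss is nearly level.

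Cd74, the invariant chain, followed the A chains closely. It was at 1002 on the germ-free and 1735 on the wild type ileum array, and at 450.3 on the germ-free and 816 on the wild type colon array. Its changes were -0.86 in colon and -0.79 in ileum. H2-Eb1, the beta chain of the E molecule, was at 801 on the germ-free and 1019 on the wild type ileum array, and at 364 on the germ-free and 637 on the wild type colon array. Its change of -0.81 in colon was near that of Cd74, but in ileum it was -0.35, smaller than those of H2-Ab1, H2-Aa and Cd74. The alpha partner of H2-Eb1, H2-Ea, is known to be silent in C57BL/6 mice through a promoter deletion. Its brightest probe set was dim, at 80.0 on the germ-free and 64.1 on the wild type ileum array. In colon it was at 50.7 on the germ-free and 116 on the wild type array. A gene known as silent thus passed the floor on 3 arrays, so a dim reading above the floor need not be transcript. The readings of Ciita and of the probe sets shared by H2-DMb1 and H2-DMb2, given below, did not exceed 116, and their folds carry this limit.

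H2-DMa, which helps load peptides, was read above the floor in ileum alone. It was at 133 on the germ-free and 254 on the wild type ileum array, a change of -0.93, the second lowest of the 7 genes after H2-Ab1. Both colon arrays lay below the floor, at 21.2 on the germ-free and 44.6 on the wild type array, so it has no fold there. The brighter of the probe sets shared by H2-DMb1 and H2-DMb2 was at 40.9 on the germ-free and 82.4 on the wild type ileum array, at least 1.32-fold lower, and at 29.9 on the germ-free and 44.7 on the wild type colon array, both below the floor.

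Ciita, the co-activator of these genes, was dim, and its brightest probe set did not follow the chains in ileum. It was at 105 on the germ-free and 93.2 on the wild type ileum array, a change of 0.17. The spread between probe sets of a gene there was 0.21, but it comes from bright genes and does not cover a gene this dim. In colon it was below the floor on the germ-free array, at 27.9, and at 80.9 on the wild type array, at least 1.30-fold lower. Its other 2 probe sets were below the floor on all 4 arrays. The array holds too little Ciita signal to say how it stands to the chains. Ctss, the protease that trims Cd74, was at 7523 on the germ-free and 8138 on the wild type ileum array, and at 12078 on the germ-free and 11342 on the wild type colon array. Its changes of 0.09 in colon and -0.11 in ileum lay within the spread between probe sets, and the colon value took either sign with the scaling of the arrays, at -0.14 when scaled on bright probe sets and 0.00 in the values as deposited.

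The probe sets of a gene mostly went the same way. The spread between the brightest 2 probe sets of 2217 bright genes, given as an SD, was 0.29 log2 for the colon comparison and 0.21 for the ileum. It measures how far 2 probe sets of a gene disagree on the same arrays. Error that both share, as from capture, amplification or hybridization, is not in it, nor is the spread between mice. A second bright probe set of H2-Aa was at 796 on the germ-free and 1336 on the wild type ileum array, a change of -0.75, against -0.84 for the first. In colon it was at 365 on the germ-free and 573 on the wild type array, a change of -0.65, against -1.17 for the first, so this reading of H2-Aa in colon was not past 2-fold. The 2 dim probe sets of H2-Aa were below the floor in colon, with ileum changes of -1.15 and -1.23. The dim H2-Ab1 probe set that passed the floor did so on the wild type ileum array alone, at 111 against 33.2 on the germ-free ileum array (33.2 being below the floor). Of the 17 probe sets 6 were above the floor on all arrays, 6 on some and 5 on none.

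Among 6 genes measured in colon, the germ-free array was at least 2-fold lower for 2, H2-Ab1 (2.36-fold) and H2-Aa (2.26-fold), where 3.23% of 11746 measured genes were. The median change of the 6 was -0.83, against -0.01 over all measured genes. In ileum 0 of 7 were at least 2-fold lower, where 0.698% of 11750 measured genes were, and the median change was -0.79 against 0.03. Ranked among the measured genes, 1.63% lay below H2-Ab1 in colon and 0.749% in ileum. For H2-Aa the shares were 1.96% and 1.13%, for Cd74 4.95% and 1.35% and for H2-Eb1 5.76% and 9.49%. For H2-DMa in ileum the share was 0.868%. Thus a similar or smaller change in ileum stood nearer the end of that comparison's narrower distribution, H2-Eb1 excepted. At 1.5-fold, a threshold chosen after the values were seen, H2-Ab1, H2-Aa and Cd74 were lower on both germ-free arrays, as were 63 of 11065 genes measured in both regions (0.569%).

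**Figure D2:**
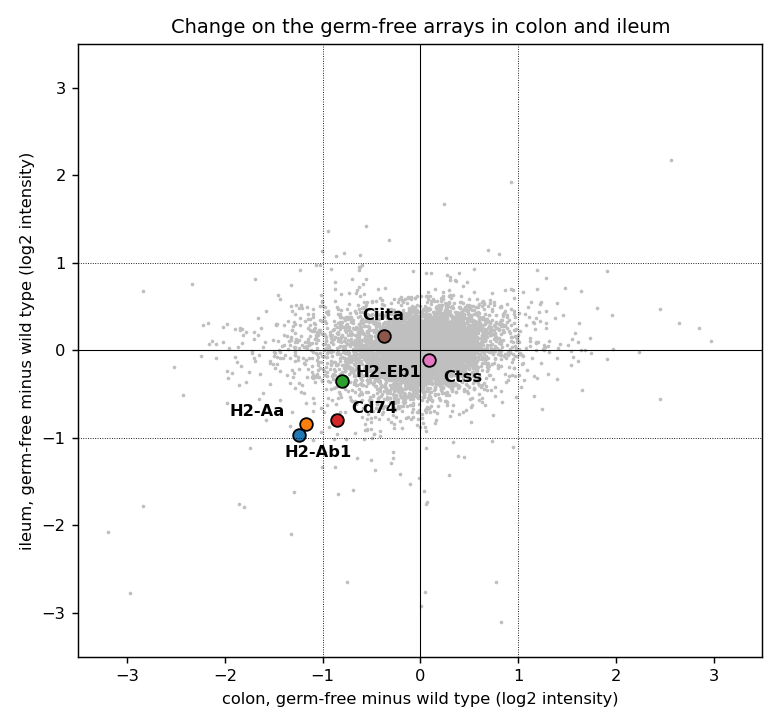
Change on the germ-free array (log2 intensity, germ-free minus wild type) in colon (x axis) and in ileum (y axis), with dotted lines at 2-fold. Grey points are the 7497 genes that were measured in both regions and exceeded the pooled 75th percentile on 1 array or more (7 lie outside the axes); H2-Ab1, H2-Aa, Cd74 and H2-Eb1 lie in the lower left, while Ctss and the dim Ciita (a bound in colon) lie near the centre.

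The 2-fold calls depended on the scaling between the arrays, while the direction of H2-Ab1, H2-Aa, H2-Eb1 and Cd74 did not. In the values as deposited H2-Ab1 had changes of -0.98 in colon and -1.07 in ileum, and H2-Aa of -0.92 and -0.94, so that H2-Ab1 was past 2-fold in ileum and neither was in colon. With the mean of all probe sets of a gene, which takes in dim ones, H2-Ab1 had changes of -0.28 in colon and -1.63 in ileum. These 4 genes were lower on the germ-free array in both regions under every alternative that gave another value than the reported one, 5 for H2-Ab1 and H2-Aa and 4 for H2-Eb1 and Cd74. The other floors return the reported value for genes this bright and bear nothing on it. Of all genes in colon, 2.32% lay at or beyond 2-fold lower and 2.50% at or beyond 2-fold higher as deposited, against 3.23% and 1.29% after quantile normalization. The median over all genes there was 0.09 as deposited and 0.12 with median scaling, against which single values should be read.

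Whether colon or ileum showed the larger change could not be settled. The colon change minus the ileum change was -0.27 for H2-Ab1, -0.34 for H2-Aa, -0.46 for H2-Eb1 and -0.07 for Cd74, with a median of -0.30 over the 6 genes measured in both, against -0.02 over all genes. Between probe sets of the same gene this difference had an SD of 0.33. The second H2-Aa probe set gave 0.10, of opposite sign, and as deposited the median was 0.05.

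All bright chains and Cd74 were higher in ileum than in colon, in both states. Between the wild type arrays H2-Ab1 was 2.29-fold higher in ileum, Cd74 2.13-fold, H2-Aa 2.08-fold and H2-Eb1 1.60-fold. H2-DMa was at least 4.06-fold higher. In all, 4 of 7 genes were at least 2-fold higher in ileum, where 6.04% of 12000 measured genes were, and the median difference was 1.06 against -0.01. Between the germ-free arrays H2-Ab1 was 2.76-fold higher in ileum, H2-Aa 2.63-fold, Cd74 2.23-fold, H2-Eb1 2.20-fold and H2-DMa at least 2.13-fold. These were 5 of 7 genes, where 7.37% of 11986 measured genes were, with a median difference of 1.14 against 0.04. As deposited, 5.25% of genes were 2-fold or more higher and 8.38% 2-fold or more lower in germ-free ileum than in germ-free colon, against 7.37% and 5.88% after quantile normalization. The 5 class II genes past 2-fold between the germ-free arrays became 2, H2-Ab1 and H2-Aa, in the values as deposited, and 3 with median scaling, where the wild type count stayed at 4 in both. Scaled on the epithelial markers, 2 were past 2-fold between the wild type arrays and 3 between the germ-free arrays. Fibroblast and smooth muscle markers had a regional difference as large between the wild type arrays, with a median of 1.10 and 6 of 11 at least 2-fold higher in ileum. Between the germ-free arrays their median was -0.25, with 0 of 7 at least 2-fold higher. Their part in the class II difference was not tested.

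Ctss went the other way between regions. It was lower in ileum, with a difference of -0.48 between the wild type arrays and -0.68 between the germ-free arrays. Ciita was at least 1.68-fold higher in germ-free ileum than in germ-free colon, and its wild type arrays differed by 0.20. The spread of 0.29 between probe sets comes from bright genes and does not cover a gene this dim. The regional and the germ-free comparisons share arrays, so their values are not independent of each other.

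Ciita, given above, could only be bounded in colon, at least 1.30-fold lower. No other measured factor that acts at class II promoters was past 2-fold between germ-free and wild type. The Rfx complex is needed to hold Ciita on the X box, and its subunit Rfx5 was at 344 on the germ-free and 376 on the wild type ileum array, and at 406 on the germ-free and 445 on the wild type colon array. Rfxank had changes of -0.18 in colon and -0.17 in ileum, and Rfxap of 0.22 and -0.11. Of 11 such factors measured, among them the Nfy subunits that bind the Y box, 0 were past 2-fold in either region, a count near the shares over all genes (3.23% lower and 1.29% higher in colon, 0.698% and 0.23% in ileum). In colon 9 of 11 were above 0, with the acetyltransferases Ep300 at 0.51 and Crebbp at 0.42, beyond the spread of 0.29 between probe sets, and in ileum 4 of 11 were above 0. Their medians were 0.20 in colon and -0.13 in ileum, and the changes ran between -0.18 and 0.51 and between -0.54 and 0.24.

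Genes on the route from interferon gamma to Ciita had changes on both sides of 0. Ifng itself was below the floor on all 4 arrays, and of 10 measured genes of this route 0 were past 2-fold in either region, again near the shares over all genes, with medians of 0.00 in colon and -0.08 in ileum. The receptor chain Ifngr1 had a change of 0.37 in colon and the repressor Prdm1 of -0.45 in colon and -0.47 in ileum. Irf1, an activator of Ciita, was at 4191 on the germ-free and 4646 on the wild type ileum array, and at 5129 on the germ-free and 6586 on the wild type colon array. Genes that interferon gamma is known to induce were lower as a list. The median was -0.39 over 18 measured genes in colon and -0.46 over 19 in ileum, with 1 lower by 2-fold or more and 0 higher by as much in each. Over all genes these shares were 3.23% lower and 1.29% higher in colon, and 0.698% lower and 0.23% higher in ileum. Below 0 were 14 of 18 and 15 of 19, where 51.3% and 45.1% of all measured genes were. The GTPase Igtp was 2.47-fold lower in colon and the immunoproteasome subunit Psmb8 3.02-fold lower in ileum. Ido1, a tryptophan-degrading enzyme, had changes of -0.85 in colon and -0.96 in ileum, and the peptide transporter Tap2 of -0.47 and -0.96. Other members went the other way, with changes of 0.52 for the chemokine Cxcl10 and 0.47 for Cxcl11 in ileum, and of 0.44 in colon and 0.17 in ileum for the GTPase Iigp1.

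Other genes of endosomal processing were lower in colon and mixed in ileum. Of 15 measured, 13 were below 0 in colon with a median of -0.41, and 8 in ileum with a median of -0.10, where 51.3% and 45.1% of all genes were below 0. In colon 2 of 15 were at least 2-fold lower, where 3.23% of all genes were. Ctsz, a carboxypeptidase, was at 312 on the germ-free and 1115 on the wild type array, and Ctsl, which trims Cd74 in thymic epithelium, at 2823 on the germ-free and 6556 on the wild type array. In ileum the changes were -0.18 for Ctsz and -0.39 for Ctsl. Lgmn, the asparagine endopeptidase, had changes of -0.27 in colon and -0.84 in ileum, and Ctsh, an aminopeptidase, of -0.87 and -0.32. Costimulatory genes were mostly dim, with 3 of 8 below the floor on every array. The inhibitory ligand Cd274 was an exception, at 90.7 on the germ-free and 240 on the wild type colon array.

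**Figure D3:**
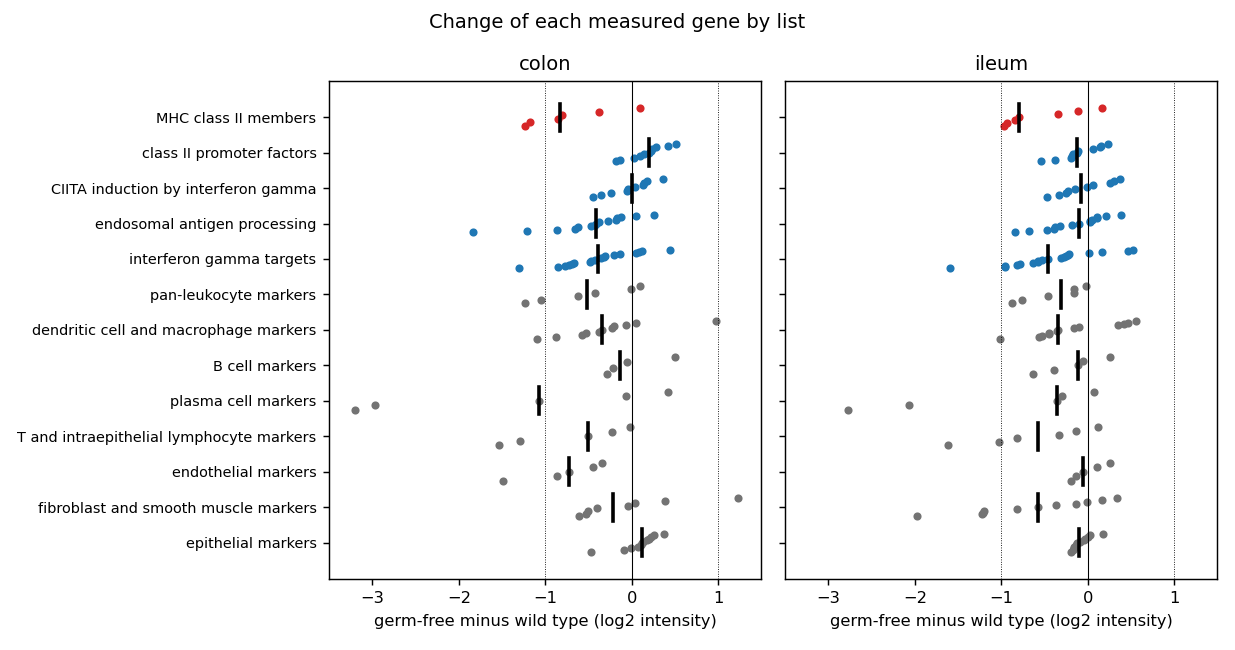
Change of each measured gene (log2 intensity, germ-free minus wild type) by list, in colon (left) and ileum (right). Each point is a gene, black bars are list medians, and dotted lines mark 2-fold; the class II median is -0.83 in colon and -0.79 in ileum, while the promoter factors and epithelial markers lie near 0.

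Markers of cells that carry class II constantly were read in part, some of them brightly, and most of those measured were lower on the germ-free arrays. Of 23 dendritic cell and macrophage markers, 10 were below the floor on all arrays. Among them were Itgax, Flt3, Zbtb46, Xcr1 and Cd209a, and also the macrophage markers Cd68, Aif1, Cd163 and C1qa. Fcer1g and Tyrobp were dim, at 122 and 134 on the wild type ileum array and at 81.7 and 94.8 on the wild type colon array. The median over those measured was -0.34 in colon (9 of 11 below 0) and -0.34 in ileum (9 of 13 below 0), where 51.3% and 45.1% of all genes were below 0. The brightest was the Fc receptor Fcgr1, at 3479 on the germ-free and 2358 on the wild type ileum array, and at 2097 on the germ-free and 3855 on the wild type colon array, above every class II chain. The summed intensity of this list was 7428 on the germ-free and 7133 on the wild type ileum array, and 4942 on the germ-free and 7046 on the wild type colon array, so that Fcgr1 made up much of it. Fcgr1 had changes of -0.88 in colon and 0.56 in ileum, and the endotoxin co-receptor Cd14 of 0.98 and -0.53. The macrophage gene Adgre1 was 2.14-fold lower in colon but had a change of 0.41 in ileum, and Csf1r had changes of -0.22 and 0.35. Lyz2 had changes of -0.57 and -1.01. Between the wild type arrays it was 17.7-fold higher in ileum than in colon, where the list had a median log2 difference of 0.22. Which cells its signal came from was not tested. Of 10 B cell markers 5, including Ms4a1 and Cd79a, were below the floor on all arrays, while the adaptor Blnk was at 1226 on the germ-free and 1272 on the wild type colon array. The B cell medians were -0.14 over 4 measured markers in colon and -0.11 over 5 in ileum. Their summed intensity was 678 on the germ-free and 761 on the wild type ileum array, and 1622 on the germ-free and 1715 on the wild type colon array.

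Among pan-leukocyte markers, Ptprc, which encodes CD45, had changes of -0.01 in colon and -0.87 in ileum, and Rac2 was at least 2.35-fold lower in colon. The list had 5 of 6 measured members below 0 in colon, with a median of -0.52, and 6 of 6 in ileum, with a median of -0.31, against 51.3% and 45.1% of all genes. Its summed intensity was 803 on the germ-free and 1054 on the wild type colon array, and 775 on the germ-free and 1157 on the wild type ileum array. T cell and intraepithelial lymphocyte markers had medians of -0.50 in colon and -0.57 in ileum, with 2 of 5 measured at least 2-fold lower in colon and 2 of 6 in ileum, against 3.23% and 0.698% of all genes. Granzyme A (Gzma), a protease of cytotoxic lymphocytes, was at 145 on the germ-free and 447 on the wild type ileum array, a change of -1.62, and was at least 2.46-fold lower in colon. The co-receptor chain Cd8a had changes of -1.54 in colon and -0.14 in ileum, and granzyme B (Gzmb) was at least 2.04-fold lower in ileum. Cd3d, Cd3e, Cd3g and Cd4 were below the floor on all arrays, and the summed intensity was 1095 on the germ-free and 1601 on the wild type ileum array and 499 on the germ-free and 981 on the wild type colon array.

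The plasma cell genes Igha and Jchain had larger differences than the class II chains. Igha, the heavy chain of immunoglobulin A, was at 1712 on the germ-free and 7204 on the wild type ileum array, and at 501 on the germ-free and 4609 on the wild type colon array, with changes of -3.20 (colon) and -2.07 (ileum). Jchain, which joins its subunits, was at 704 on the germ-free and 4808 on the wild type ileum array, and at 197 on the germ-free and 1549 on the wild type colon array, with changes of -2.98 (colon) and -2.77 (ileum). Of the measured plasma cell genes, 3 of 5 were at least 2-fold lower in colon and 2 of 5 in ileum, against 3.23% and 0.698% of all genes. The plasma cell list had medians of -1.07 in colon and -0.36 in ileum. Its summed intensity was 8040 on the germ-free and 17474 on the wild type ileum array and 7493 on the germ-free and 11530 on the wild type colon array, and most of it on the germ-free arrays was Sdc1, at 5252 in ileum and 6464 in colon, which epithelium also expresses.

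Connective tissue and vessel markers differed too. Of 11 fibroblast and smooth muscle markers measured in ileum, 4 were lower by 2-fold or more in germ-free mice, where 0.698% of all genes were, and the median was -0.57. Among them the intermediate filament gene Vim was at 540 on the germ-free and 1248 on the wild type ileum array, and Tagln was at least 3.93-fold lower. In colon 0 of 8 were at least 2-fold lower, where 3.23% of all genes were, with a median of -0.22. There 1 of 8, Pdgfrb, was 2.34-fold higher, where 1.29% of all genes were at least 2-fold higher. The summed intensity of the fibroblast and smooth muscle markers was 4822 on the germ-free and 7143 on the wild type ileum array. In colon it was 4322 on the germ-free and 4592 on the wild type array. Of 5 endothelial markers measured in colon 5 were below 0, where 51.3% of all genes were, with a median of -0.73. Among them Kdr, a receptor for vascular growth factor, was 2.80-fold lower. In ileum 3 of 5 endothelial markers were below 0, where 45.1% of all genes were, with a median of -0.05. Their summed intensity was 715 on the germ-free and 742 on the wild type ileum array, and 480.2 on the germ-free and 918 on the wild type colon array. The part of all these cells in the class II values was not tested, and fewer cells of a type cannot be told apart from less RNA per cell. Epithelial markers had medians of 0.12 in colon and -0.11 in ileum, with 0 of 12 past 2-fold in either region. That count is near the shares over all genes (3.23% lower and 1.29% higher in colon, 0.698% and 0.23% in ileum).

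The mean centred profile of the 5 bright genes (H2-Ab1, H2-Aa, H2-Eb1, Cd74 and Ctss) was set against 7612 genes brighter than the pooled 75th percentile (259) on 1 array or more. Likeness was the Euclidean distance over the 4 arrays in log2 units, and with 4 arrays it is a description alone. The 5 genes make up the profile, so their own nearness is partly built in. H2-Eb1 was the nearest of all genes, Cd74 was at rank 24, H2-Aa at 138, H2-Ab1 at 419 and Ctss at 6147. Ranked against the profile of the other 4, among 7608 genes, H2-Eb1 was at rank 3, Cd74 at 96, H2-Aa at 716 and H2-Ab1 at 1984. The 10 nearest other genes, at distances between 0.22 and 0.30, were Krt42, Rps4l, Hacl1, Glipr2, Ptov1, Gm20740, Fzr1, Eef2, Ctsh and Gdpd5, with changes between -0.87 and -0.53 in colon and between -0.57 and -0.27 in ileum. With Ctss left out of the profile, a choice made after the values were seen, the nearest gene outside the family was the peptide transporter Tap1, at a distance of 0.27. Each of the 4 remaining genes was then ranked against the profile of the other 3, among 7609 genes, which placed H2-Aa and Cd74 at rank 1, H2-Eb1 at 10 and H2-Ab1 at 13.

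**Figure D4:**
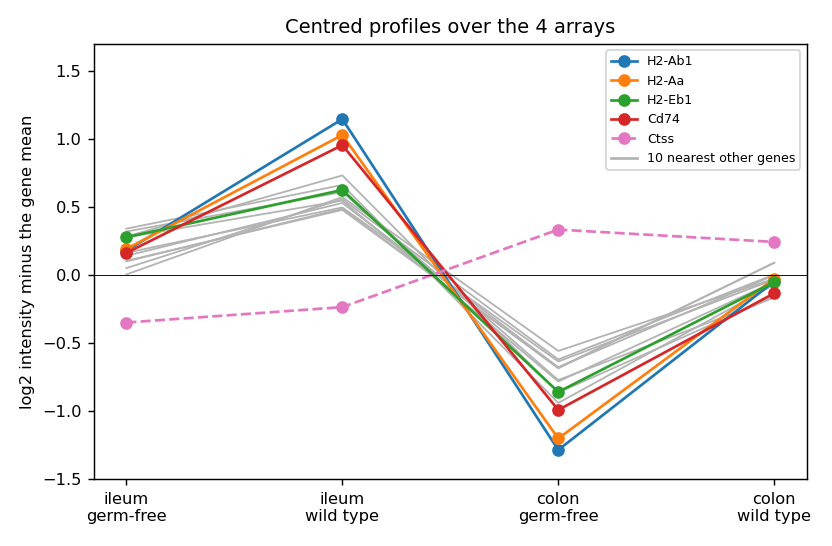
Log2 intensity minus the gene's own mean on the 4 arrays, for the 5 bright class II genes and the 10 nearest other genes (grey). H2-Ab1, H2-Aa, Cd74 and H2-Eb1 peak on the wild type ileum array and are lowest on the germ-free colon array, whereas Ctss (dashed) runs the other way between regions.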

How the data were processed

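RNA of laser-captured epithelium (about 16000 cells per group, pooled from 4 mice) was amplified from 40 ng in 2 rounds and hybridised to 1 array per group, per the labels' protocols. Per the series' design text the authors used dCHIP2004, and the deposited table holds linear intensities, 1 per probe set; the background and normalization settings are not given in the sources. Medians of the brighter probe sets differed by 0.32 log2 between arrays, above the limit of 0.25, so quantile normalization was applied to the log2 values of the 45037 probe sets other than controls. Values under the pooled median (62.4) were set to it. The brightest probe set with 1 symbol stood for each gene (34945 probe sets; 932 had several symbols and 9160 none here), named through the platform annotation and RefSeq GRCm38.p6 (0 symbols differed). Differences of log2 values are descriptions, and no p-value was computed; 2-fold was used to count genes. The steps were tested on simulated data in which only genes brighter than the colon readings of the class II chains and Cd74 were changed. That test does not cover these genes or dim ones. Named genes are all members, at most 4 of each list with the largest change among bright ones, and list genes whose value was the point. Members and lists were chosen with earlier results of these data known. Alternatives varied the scaling, the floor and the choice of probe sets. Python 3.11.15, numpy 2.4.6 and pandas 2.3.3 were used.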

Additional observations from a re-analysis of the deposited data

Results flagged for a closer look

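Ciita and Ctss had opposite signs in the regions, with 1 array per group and no test of the difference. Ciita had a change of -0.37 in colon, a bound since the germ-free array was below the floor, and one of 0.17 in ileum. Ctss had changes of 0.091 in colon and -0.11 in ileum, both within the spread between probe sets.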

How the results depend on the processing

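No paired analysis was possible because each group had 1 array. The count of genes at least 2-fold lower in germ-free colon, 2 here, was 0 as deposited, 0 with median scaling, 0 with the mean of all probe sets and 0 without the probe sets of possible multiple matches, which leaves out H2-Ab1, H2-Aa and Cd74; it was 4 with the floor at the 25th percentile and 4 with no floor, where H2-DMa and Ciita also count. The ileum count, 0 here, was 1 as deposited, 1 with median scaling and 1 with the mean of probe sets. The count at least 2-fold higher in germ-free ileum than in germ-free colon, 5 here, was between 2 and 6 over the settings, and that between the wild type arrays, 4 here, between 1 and 4. The median difference between the colon and ileum changes turned to 0.051 as deposited, 0.059 with median scaling and 0.20 with the mean of probe sets. The median change was -0.47 in colon and -0.57 in ileum with the mean of probe sets, and -0.37 and -0.23 without the probe sets of possible multiple matches, where the wild type regional median was 0.44. Of the 77 alternative values of medians and counts, 60 stayed within the spread between probe sets or within 1.5 times. That count is not a measure of stability, since some settings return the same values for bright genes and the limit is wide. A colon median of -0.55 with median scaling, against -0.83 here, still lay within it. Beyond the settings named, the cause of the other shifts was not tested. Scaling on the epithelial markers, adding the probe set shared by H2-DMb1 and H2-DMb2 and leaving out Ctss, Ciita and H2-DMa were chosen after the data were seen. Scaled on the epithelial markers, the median of all genes between wild type ileum and colon was -0.23, with 4.21% at least 2-fold higher and 8.87% lower, and in germ-free ileum against wild type 0.389% were higher and 0.511% lower, against 0.23% and 0.698% after quantile normalization. Dim probe sets limit Ciita, H2-DMa and H2-DMb1. In colon H2-DMa and the probe sets shared by H2-DMb1 and H2-DMb2 lay below the floor, as did Ciita on the germ-free array.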
